A study of Mus musculus with 5 samples.

Results

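Alveolar sodium transport was followed through 7 genes, picked by symbol: the epithelial sodium channel subunits Scnn1a, Scnn1b and Scnn1g, the sodium pump subunit Atp1b1, the chloride channel Cftr, the ubiquitin ligase Nedd4l and the kinase Sgk1. All 7 were listed in each of the 4 deposited comparison tables, which hold 21590 genes, and none carried a fold change of exactly 0. In ventilated against unventilated wild type lungs, Sgk1 was 2.83-fold, Atp1b1 1.72-fold and Nedd4l 1.56-fold higher, while the channel subunits did not pass the test. These groups also differed in sex-linked transcripts, so sex and ventilation cannot be told apart. Cftr was 1.51-fold higher in unventilated knockout than in unventilated wild type lungs. None of the 7 passed the test between either ventilated knockout group and ventilated wild type lungs.

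Fluid leaves the airspace of the lung by following salt. Sodium enters alveolar epithelial cells through the epithelial sodium channel, built of alpha, beta and gamma subunits, and is pumped out at the basolateral side by the sodium-potassium ATPase, for which Atp1b1 encodes a beta subunit that helps bring the pump to the membrane. The ligase Nedd4l (also called NEDD4-2) binds the channel and marks it for removal, and Sgk1, which corticosteroids induce, phosphorylates Nedd4l and so keeps channels at the surface. Cftr conducts chloride and can carry fluid in either direction.

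RNA sequencing was done on whole lungs of mice on a mixed 129S6, C57BL/6 and BALB/c background, wild type or lacking Cldn4 (Cldn4 KO), the gene of the tight junction protein claudin-4. The groups were wild type (WT_noVILI) and knockout (KO_noVILI) lungs without ventilation and, after 2 h at a pressure of 40 cmH2O that overstretches the lung (VILI, injury by the ventilator), wild type (WT_VILI), knockouts with injury like that of wild type (KO_VILIlow) and knockouts with more injury (KO_VILIhigh). The design text gives duplicates, the labels hold 1 record a group, and the tables hold no value per library, so no spread over animals and no depth can be given. The labels state neither age nor sex, nor whether duplicates are separate animals, so the deposited p-values measure only the spread between these libraries. Both ventilated knockout groups were formed by the injury of the lungs, which makes them groups sorted by outcome.

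In the rebuilt levels explained in the next paragraph, the 2 wild type groups had 8.98 (WT_noVILI) and 140 CPM (WT_VILI) of Cldn4, and the knockouts had 0.135, 0.0211 and 0.122 CPM in KO_noVILI, KO_VILIlow and KO_VILIhigh, as the genotype labels say. Lung epithelium was present in every group: the summed level of 10 alveolar type 1 markers ranged from 5973 to 7680 CPM over the groups and that of 9 alveolar type 2 markers from 10169 to 12020 CPM. The unventilated and ventilated groups differed in sex-linked transcripts, with Xist at 890 and 504 CPM in WT_noVILI and KO_noVILI and at 6.13 CPM in WT_VILI, so sex and ventilation cannot be told apart. In bulk lung, fewer cells of a type and less RNA per cell cannot be told apart either.

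The tables give a fold change between 2 groups and a mean abundance (log2 CPM, where CPM is reads of a gene scaled to the library total) for each gene. Group levels were rebuilt from these on 1 scale: WT_noVILI and WT_VILI from the table that compares them, and each knockout group from its deposited fold change against wild type. They are fitted group values without an error of their own, and the error is given with each fold change.

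Among the channel subunits, Scnn1a, the alpha subunit, stood at 715 CPM in WT_noVILI, 591 in KO_noVILI, 720 in WT_VILI, 799 in KO_VILIlow and 724 in KO_VILIhigh. Scnn1b, the beta subunit, stood at 116, 98.2, 128, 112 and 140 CPM in the same order. Scnn1g, the gamma subunit, stood at 166, 130, 183, 186 and 190 CPM. All 3 subunits were lowest in KO_noVILI, and as reported no compared pair of groups passed the test for any of them; Scnn1b passed in 1 contrast under 1 alternative variance, given with that contrast. Divided by the exon length of each gene, the levels in WT_noVILI were 173 CPM per kilobase for Scnn1a, 46.8 for Scnn1b and 55.4 for Scnn1g, so the alpha subunit stood above both others, and in the other groups it did so too (143 to 193 CPM per kilobase, against 39.6 to 56.4 for Scnn1b and 43.6 to 63.4 for Scnn1g). Scnn1b and Scnn1g are neighbours on chromosome 7 in the RefSeq annotation of build GRCm38.p6, while Scnn1a lies on chromosome 6.

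Levels of Atp1b1, the beta subunit of the pump, were 405 (WT_noVILI) and 432 CPM (KO_noVILI) without ventilation, against 697 in WT_VILI, 715 in KO_VILIlow and 626 in KO_VILIhigh. The fitted values of all 3 ventilated groups were above both unventilated ones, and as reported the difference passed the test in wild type. In both knockout contrasts it passed only with the variance of the cancelling wild type groups left out, as given with those contrasts. Per kilobase of exon its level was 157 CPM in WT_noVILI and 270 in WT_VILI.

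Cftr, the chloride channel, was at 20.7 CPM in WT_noVILI, 31.3 in KO_noVILI, 29.3 in WT_VILI, 27.1 in KO_VILIlow and 30.4 in KO_VILIhigh. WT_noVILI was the low group, and the other 4 ranged from 27.1 to 31.3 CPM. Per kilobase of exon, Cftr ranged from 2.76 to 4.17 CPM over the groups, the lowest of the 7 in every group.

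The 2 regulators are given next. Sgk1 stood at 137 CPM in WT_noVILI, 130 in KO_noVILI, 387 in WT_VILI, 433 in KO_VILIlow and 473 in KO_VILIhigh. Nedd4l stood at 67.1, 69.2, 105, 126 and 107 CPM in the same order. Both had higher fitted values in the 3 ventilated groups than in the 2 unventilated ones. As reported the difference passed the test in wild type and in both knockout contrasts for Sgk1. For Nedd4l it passed in wild type and not in the knockout contrasts (adjusted p = 0.0517 and 0.371, normal approximation). With the variance of the cancelling wild type groups left out, Nedd4l passed in both knockout contrasts. The plot of rebuilt levels by group shows these patterns side by side.

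**Figure D1:**
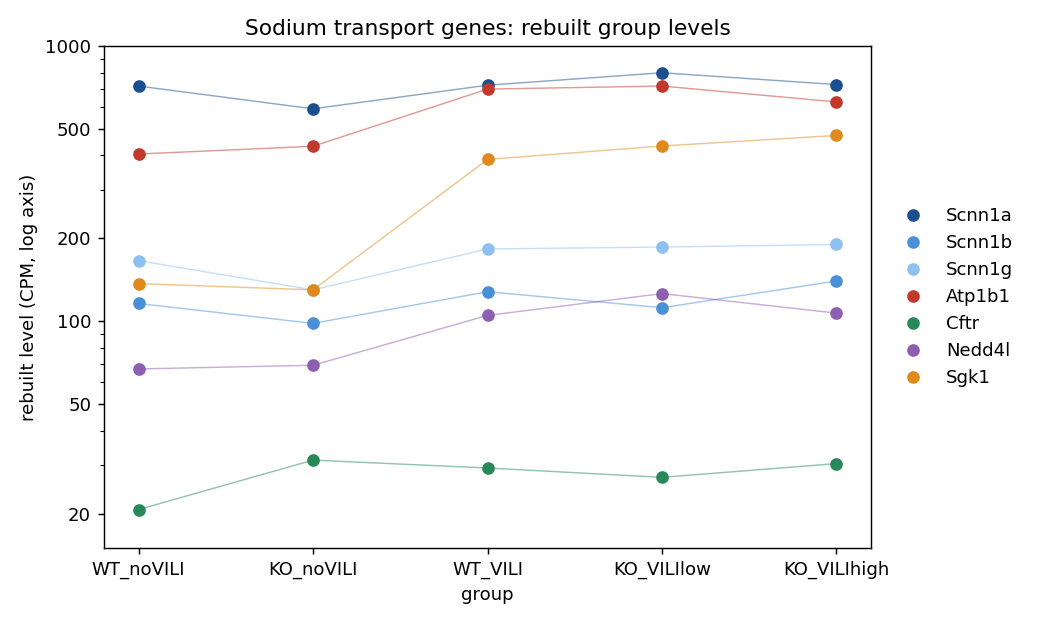
Rebuilt level of each of the 7 genes (CPM, log axis) in the 5 groups (x axis). Each point is 1 fitted group value, without error bars because the tables hold no values per library, and thin lines join the points of a gene. Sgk1 goes from 137 CPM in WT_noVILI to 387 in WT_VILI, while Scnn1a stays between 591 and 799 CPM.

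The first comparison sets ventilated against unventilated wild type lungs. These groups also differed in sex-linked transcripts (Xist at 6.13 and 890 CPM), so a change cannot be assigned to the injury protocol alone. In the authors' deposited table, 3 of the 7 genes were called higher and none lower at an adjusted p (edgeR FDR) of 0.05, where 9.09 percent of all genes were called, 4.85 percent higher. The median log2 fold change of the 7 was 0.50, against -0.02 over the 13801 genes whose mean log2 CPM reached 1. Sgk1 rose by 1.50 on the log2 scale, with a standard error of 0.13 rebuilt from the deposited p (adjusted p = 7.46e-27), and ranked 44 of 21590 genes by p. Atp1b1 rose by 0.78 on the log2 scale (SE 0.16, adjusted p = 6.39e-05). Nedd4l, which acts against the channel, rose by 0.64 on the log2 scale (SE 0.15, adjusted p = 0.000394), a call lost when the edgeR p was adjusted by Bonferroni (adjusted p = 0.262). The kinase that holds Nedd4l off the channel and Nedd4l itself both had higher transcript levels.

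None of the channel subunits passed the test. Scnn1a had a log2 fold change of 0.01 (SE 0.14, adjusted p = 1), Scnn1b one of 0.15 (SE 0.15, adjusted p = 0.81) and Scnn1g one of 0.15 (SE 0.19, adjusted p = 0.954) in the authors' edgeR comparison. As ratios, the approximate 95% intervals run from 0.832 to 1.22 for Scnn1a, 0.906 to 1.35 for Scnn1b and 0.855 to 1.43 for Scnn1g. The ratio of Atp1b1 (1.72, interval 1.38 to 2.15) lies above all 3 intervals, but its own interval overlaps that of Scnn1g. Differences between genes were not tested. Cftr had a log2 fold change of 0.50 (SE 0.19, adjusted p = 0.0695) in the authors' deposited table. That value missed the threshold, and passed it when Benjamini-Hochberg adjustment was restricted to genes whose mean log2 CPM reached 1 (adjusted p = 0.0461).

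**Figure D2:**
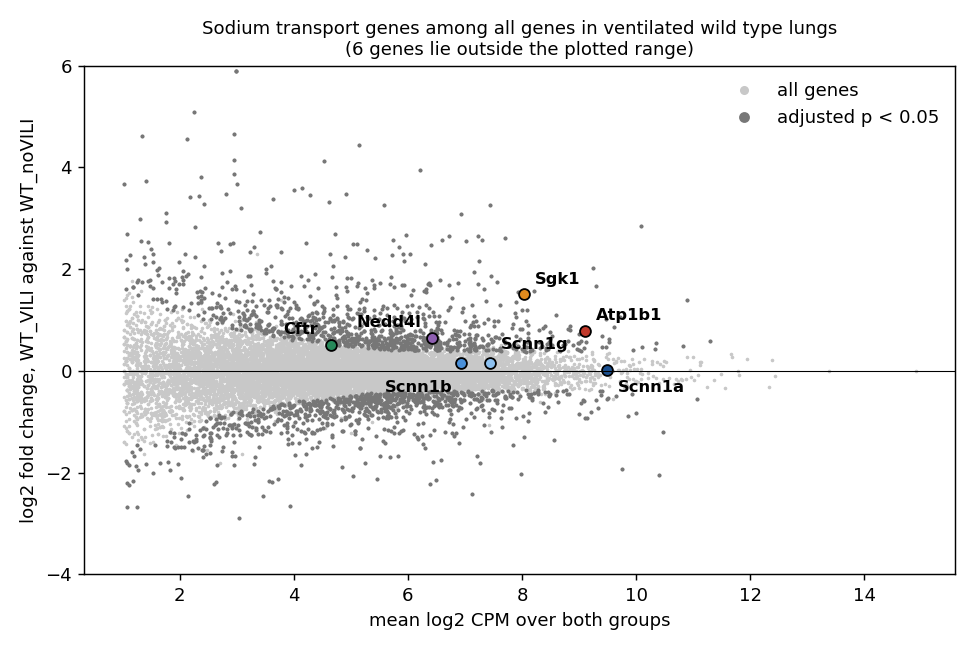
Log2 fold change of WT_VILI against WT_noVILI (y axis) by mean log2 CPM (x axis) for the 13801 genes whose mean log2 CPM reached 1, of which 6 lie outside the plotted range. Dark points are genes at an adjusted p under 0.05, and the 7 named genes are drawn in colour. Sgk1 lies at 1.50 and Atp1b1 at 0.78, and the 3 channel subunits lie between 0.01 and 0.15.

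Other cells and the epithelium changed in the same lungs. Counts of markers here are of those called at an adjusted p (edgeR FDR) of 0.05, where 9.09 percent of all genes were called. Neutrophil markers rose in 8 of 8 cases, from a summed 147 CPM in WT_noVILI to 583 in WT_VILI, and 762 and 1040 in KO_VILIlow and KO_VILIhigh. General epithelial markers were called higher in 3 and lower in 1 of 9 cases (summed 1546 to 2242 CPM). The 3 were the keratins Krt8 (log2 fold change 1.76), Krt18 (1.54) and Krt19 (0.83), with Epcam at 66.4 and 78.8 CPM. Alveolar type 1 markers were called higher in 2 and lower in 1 of 10 cases (summed 7680 to 7218 CPM). Type 2 markers were called higher in 1 of 9 (10225 to 12020 CPM), with a median log2 fold change of 0.20 over the 9. Endothelial markers were called lower in 3 of 8 (4493 to 4123 CPM). Ciliated markers were called lower in 3 of 6 (248 to 150 CPM), with a median of -0.50. No marker of these lists was listed at 0 in either group, the lowest being the neutrophil gene Camp at 0.297 CPM in WT_noVILI. The part of these cells in the rises of Sgk1, Atp1b1 and Nedd4l was not tested.

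Sgk1 is a textbook target of the glucocorticoid and mineralocorticoid receptors, whose response element is a pair of inverted half-sites. Because Sgk1 rose most, the 250 bases before each annotated start were searched in the promoter sequences of RefSeq (build GRCm38.p6), which hold Sgk1, Atp1b1, Cftr, Scnn1b and Scnn1g and 32851 promoters in all. The half-site AGAACA, on either strand, was in 16.1 percent of them, and the full site, which is AGAACA, then 3 bases of any kind, then TGTTCT, was in 0.00913 percent, or 3 promoters. Among them is the promoter of start 5 of the 6 annotated Sgk1 starts, where the site begins 189 bases before that start and 965 bases before start 6. Shown are the windows of these starts, chr10:21993640-21993889 and chr10:21994416-21994665, and that of Atp1b1, chr1:164458356-164458605 (minus strand), the pump gene that rose with it. Each reads 5′ to 3′ towards the start, and capitals mark AGAACA or its reverse complement TGTTCT.
Sgk1 start 5: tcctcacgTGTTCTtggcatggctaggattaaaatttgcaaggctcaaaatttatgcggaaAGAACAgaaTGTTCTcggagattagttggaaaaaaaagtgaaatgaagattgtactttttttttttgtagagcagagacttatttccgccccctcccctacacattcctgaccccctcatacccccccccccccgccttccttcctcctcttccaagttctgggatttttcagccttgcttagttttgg
Sgk1 start 6: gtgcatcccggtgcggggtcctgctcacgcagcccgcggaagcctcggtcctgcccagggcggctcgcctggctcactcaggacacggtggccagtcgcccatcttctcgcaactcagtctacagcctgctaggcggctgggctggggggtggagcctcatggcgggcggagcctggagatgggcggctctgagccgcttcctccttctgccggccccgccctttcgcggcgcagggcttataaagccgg
Atp1b1: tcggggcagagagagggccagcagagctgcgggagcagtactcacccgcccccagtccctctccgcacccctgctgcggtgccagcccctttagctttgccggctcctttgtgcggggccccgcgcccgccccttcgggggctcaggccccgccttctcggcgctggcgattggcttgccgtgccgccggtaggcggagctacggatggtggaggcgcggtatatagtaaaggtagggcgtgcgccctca
The first window holds 3 half-sites, of which 2 form the full site, and the other 2 windows hold none; of the Sgk1 windows not shown, those of starts 1 and 4 hold 1 half-site each. No half-site was found in the windows of Cftr, Scnn1b and Scnn1g either, and the AP-1 site TGANTCA (6.75 percent of promoters) and the cAMP response element TGACGTCA (1.55 percent), each sought on both strands, were in no window of these 5 genes. The tables give 1 value for Sgk1, so which start was in use cannot be read from them, and these letters do not tell which factors bound.

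The genes around the channel were followed in 5 further lists, of which 68 of 70 genes reported here were in the tables. In ventilated against unventilated wild type lungs, none of the 12 sodium pump genes reported here beside Atp1b1 was called (edgeR). Their median log2 fold change was 0.15 in the authors' deposited table.

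Of 7 genes for proteases that cleave and activate the channel and for their inhibitors, 1 was called higher and 1 lower. Over all genes 9.09 percent were called. Furin, which cuts the channel inside the cell, rose by 0.41 on the log2 scale (SE 0.13, adjusted p = 0.0297) in the authors' deposited table. Prss8, the membrane protease prostasin that completes the cut in the gamma subunit, fell by 0.62 (SE 0.15, adjusted p = 0.000598), from 85.0 to 55.3 CPM. The median of the list was 0.30.

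Among 21 kinases, ubiquitin ligases and adaptors of the channel, 1 was called higher and 1 lower, with a median of 0.05. That count is near the share over all genes, of which 9.09 percent were called. Dot1l, a histone methyltransferase that takes part in repressing Scnn1a, rose by 0.80 on the log2 scale (SE 0.17, adjusted p = 0.000136). Nedd4, the close relative of Nedd4l, fell by 0.40 (SE 0.13, adjusted p = 0.0234), from 770 to 583 CPM, so the 2 ligases moved in opposite directions in the authors' deposited table.

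Over all genes 9.09 percent were called, and the lists were chosen with earlier results of these data known, so their counts are not ranked. Among the genes reported here, corticosteroid and adrenergic signalling had 3 called higher and 2 lower of 9, with a median of 0.12. Of these, 3 corticosteroid targets rose on the log2 scale: Zbtb16 by 1.19 (SE 0.24, adjusted p = 3.41e-05), Klf9 by 0.98 (SE 0.16, adjusted p = 6.49e-08) and Per1, a clock gene that acts on Scnn1a transcription, by 0.80 (SE 0.13, adjusted p = 1.31e-07). Adrb1, the beta-1 adrenergic receptor, fell by 1.22 (SE 0.16, adjusted p = 1.28e-11), from 75.5 to 32.3 CPM. Nr3c1, the glucocorticoid receptor, named after its values were seen, fell by 0.57 (adjusted p = 0.00233). Tsc22d3, another corticosteroid target, was at -0.01 (adjusted p = 1), and Nr3c2, the mineralocorticoid receptor, at 0.07 (adjusted p = 1) in the authors' edgeR comparison. None of 16 other ion transporters and channels with a nonzero fold change was called (edgeR), with a median of 0.16.

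**Figure D3:**
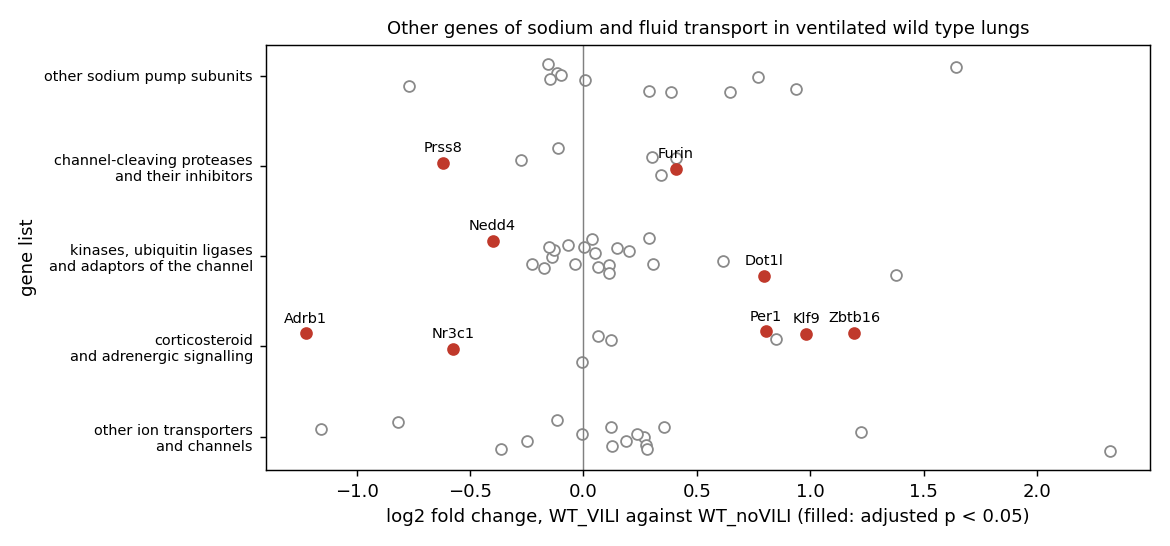
Log2 fold change of WT_VILI against WT_noVILI (x axis) for the genes reported here of the 5 lists (rows, points spread vertically for legibility). Filled and named points have an adjusted p under 0.05. The called genes of the corticosteroid and adrenergic list run from Adrb1 at -1.22 to Zbtb16 at 1.19.

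The second comparison sets KO_noVILI against WT_noVILI and asks how the genotypes differed without ventilation. Cftr was the 1 gene of the 7 that was called, and it was higher in the knockout, where the authors' deposited table called 3.36 percent of all genes, 1.45 percent higher. Its log2 fold change was 0.60 (SE 0.17, adjusted p = 0.0246), or 1.51-fold with an approximate 95% interval from 1.19 to 1.91. The call was lost at a deposited edgeR FDR of 0.01 and under Bonferroni (adjusted p = 1).

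The channel subunits had negative values that did not pass: Scnn1a at -0.28 (SE 0.21, adjusted p = 0.786), Scnn1b at -0.24 (SE 0.15, adjusted p = 0.638) and Scnn1g at -0.34 (SE 0.26, adjusted p = 0.803) in the authors' edgeR comparison. Their intervals as ratios run from 0.624 to 1.09, 0.688 to 1.04 and 0.550 to 1.13. Atp1b1 (0.09, SE 0.15), Nedd4l (0.04, SE 0.15) and Sgk1 (-0.07, SE 0.14) were near 0, each with an adjusted p of 1 and with intervals inside 0.783 and 1.30.

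Of the 5 further lists, 2 genes were called in this table, where 3.36 percent of all genes were called, and both were lower in the knockout. Per1 fell by 0.67 on the log2 scale (SE 0.14, adjusted p = 0.000492), from 228 to 144 CPM. Slc4a4, a sodium bicarbonate cotransporter, fell by 0.55 (SE 0.17, adjusted p = 0.047), from 62.2 to 42.5 CPM, in the authors' deposited table. The sodium pump genes, the proteases and the kinases and adaptors had no gene called (edgeR), with medians of 0.02, -0.04 and -0.10.

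Tissue markers differed between these groups as well. Their counts are of markers called at an adjusted p of 0.05, where 3.36 percent of all genes were called. Cardiac muscle markers were lower in 8 of 8 cases (summed 740 CPM in WT_noVILI and 290 in KO_noVILI) and ciliated markers in 3 of 6 (248 and 177 CPM). Club cell markers were lower in 1 of 3 cases (3353 and 2619 CPM), alveolar type 1 markers were called in 0 of 10 with a median log2 fold change of -0.35 (7680 and 5973 CPM), and general epithelial markers in 0 of 9 with a median of -0.13 (1546 and 1409 CPM). Alveolar type 2 markers were called in 0 of 9, with a median of 0.22 (10225 and 11949 CPM). Endothelial markers were higher in 1 of 8 cases, Sox18 (0.68, adjusted p = 0.012), with a median of 0.20 (4493 and 5282 CPM), and neutrophil markers in 1 of 8, Ngp (2.93, adjusted p = 0.0285), with a median of 0.18 (147 and 152 CPM), in the authors' edgeR table. The lowest of these tissue markers was the cardiac gene Nppa at 0.218 CPM in KO_noVILI. Beside them, the sex-linked transcript Xist was called lower in the knockout (log2 fold change -0.82, adjusted p = 0.00339, edgeR). Its levels were 890 CPM in WT_noVILI and 504 in KO_noVILI. The part of these differences in the values of Cftr and the channel subunits was not tested.

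The third comparison sets KO_VILIlow against WT_VILI and asks whether loss of Cldn4 changed the ventilated state at like injury. None of the 7 genes was called by the authors' edgeR test, and 0 had an unadjusted p under 0.05, where 0.973 percent of all genes were called. The log2 fold changes ran from -0.20 for Scnn1b (SE 0.19) to 0.26 for Nedd4l (SE 0.18), and all 7 had an adjusted p of 1. For Sgk1 the value was 0.16 (SE 0.18), a ratio of 1.12 with an interval from 0.879 to 1.43. Cftr, which was higher in the knockout at rest, had a ratio of 0.925 here, with an interval from 0.641 to 1.34. Cardiac muscle markers were called higher in 7 of 8 cases in this comparison (summed 485 CPM in WT_VILI and 1182 in KO_VILIlow, against 290 in KO_noVILI). Neutrophil markers were called higher in 1 of 8 cases (583 and 762 CPM) and ciliated markers lower in 1 of 6 (150 and 110 CPM). The part of these cells in the values of the 7 genes was not tested.

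In knockout lungs with more injury, again none of the 7 was called and 0 had an unadjusted p under 0.05 in the authors' edgeR table, where 1.56 percent of all genes were called. Sgk1 had the highest value, 0.29 on the log2 scale (SE 0.21, adjusted p = 0.929), a ratio of 1.22 with an interval from 0.925 to 1.62. Atp1b1 had the lowest, -0.15 (SE 0.21, adjusted p = 1), a ratio of 0.899 with an interval from 0.676 to 1.20. The channel subunits stood at 0.01, 0.12 and 0.05 for Scnn1a, Scnn1b and Scnn1g (adjusted p = 1 each), Cftr at 0.05 and Nedd4l at 0.02. In the same comparison the general epithelial markers Krt8 (0.74), Krt18 (0.85), Krt19 (0.84) and Elf3 (1.08) were higher in the authors' deposited table, 4 of 9 in the list, while Nkx2-1 (-0.47, adjusted p = 0.622) and Esrp1 (-0.21, adjusted p = 1) had negative values and the summed level went from 2242 to 3134 CPM. Neutrophil markers were called higher in 2 of 8 cases (583 and 1040 CPM). Of 9 alveolar type 2 markers 1 was called lower, Lamp3 (-0.66, adjusted p = 0.0396, edgeR), with a median of -0.16 over the 9 (12020 and 10169 CPM). None of 10 alveolar type 1 markers was called (edgeR), with a median of -0.19 (7218 and 6654 CPM). Their part in the values of the 7 genes was not tested.

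The standard errors of the 7 genes ran from 0.18 to 0.27 in the KO_VILIlow table and from 0.21 to 0.27 in the KO_VILIhigh table, against 0.13 to 0.19 in the WT_VILI table. The intervals in both knockout tables are therefore wider. Both share the ventilated wild type libraries as reference, so they are not independent of each other. None of the 5 further lists had a gene called in either table (edgeR).

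**Figure D4:**
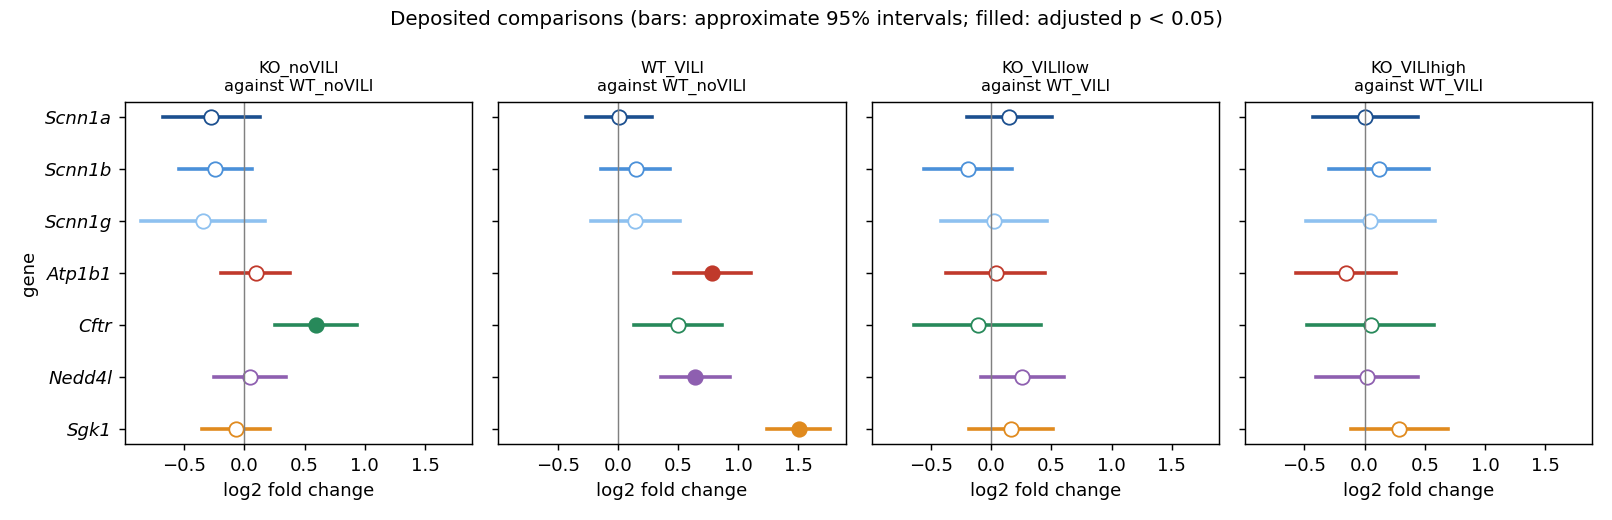
Log2 fold change (x axis) of the 7 genes (rows) in the 4 deposited comparisons (panels), with bars for the approximate 95% intervals rebuilt from the deposited p-values. Filled points have an adjusted p under 0.05: Cftr in the first panel, and Atp1b1, Nedd4l and Sgk1 in the second, with none in the last 2.

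No table compares ventilated with unventilated knockout lungs, so these changes were derived by adding and subtracting the authors' deposited log2 fold changes, with summed variances. Sex-linked transcripts differed here too, with Xist at 504 CPM in KO_noVILI and at 4.39 and 2.64 in KO_VILIlow and KO_VILIhigh. Sgk1 rose in both: by 1.74 on the log2 scale in KO_VILIlow against KO_noVILI (SE 0.26, adjusted p = 1.74e-08, normal approximation) and by 1.86 in KO_VILIhigh against KO_noVILI (SE 0.28, adjusted p = 9.14e-09). It was the 1 gene of the 7 called in each, where 3.53 and 3.88 percent of the genes tested were called, 2.22 and 2.45 percent higher. These contrasts share KO_noVILI, both wild type groups and their tables. In KO_VILIlow and KO_VILIhigh against KO_noVILI, cardiac muscle markers were called higher in 7 and 1 of 7 cases by the derived test. Neutrophil markers were called higher in 5 and 6 of 7, and general epithelial markers in 3 of 9 in each. Ciliated markers were called lower in 1 of 6 and endothelial markers in 1 of 8 in each. The part of these cells in the values of the 7 genes was not tested.

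Nedd4l had derived log2 fold changes of 0.86 (SE 0.28, adjusted p = 0.0517) for KO_VILIlow and 0.62 (SE 0.30, adjusted p = 0.371) for KO_VILIhigh, beside the deposited 0.64 in wild type. Atp1b1 had 0.73 (SE 0.30, adjusted p = 0.254) and 0.54 (SE 0.30, adjusted p = 0.536), beside 0.78 in wild type. The summed variances still count wild type groups that cancel in the difference. With that share left out, assuming the same variance in every group, Nedd4l and Atp1b1 passed in both contrasts, with adjusted p = 1.95e-06 and 0.000523 for KO_VILIlow and 0.00336 and 0.0153 for KO_VILIhigh, and Scnn1b passed for KO_VILIhigh (0.51, adjusted p = 0.0213).

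For the channel subunits the derived values were 0.44 and 0.29 for Scnn1a, 0.19 and 0.51 for Scnn1b and 0.51 and 0.54 for Scnn1g in KO_VILIlow and KO_VILIhigh, with standard errors from 0.28 to 0.43 and none called. Cftr stood at -0.21 (SE 0.37, adjusted p = 1) and -0.04 (SE 0.37, adjusted p = 1), beside the deposited 0.50 in wild type.

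**Figure D5:**
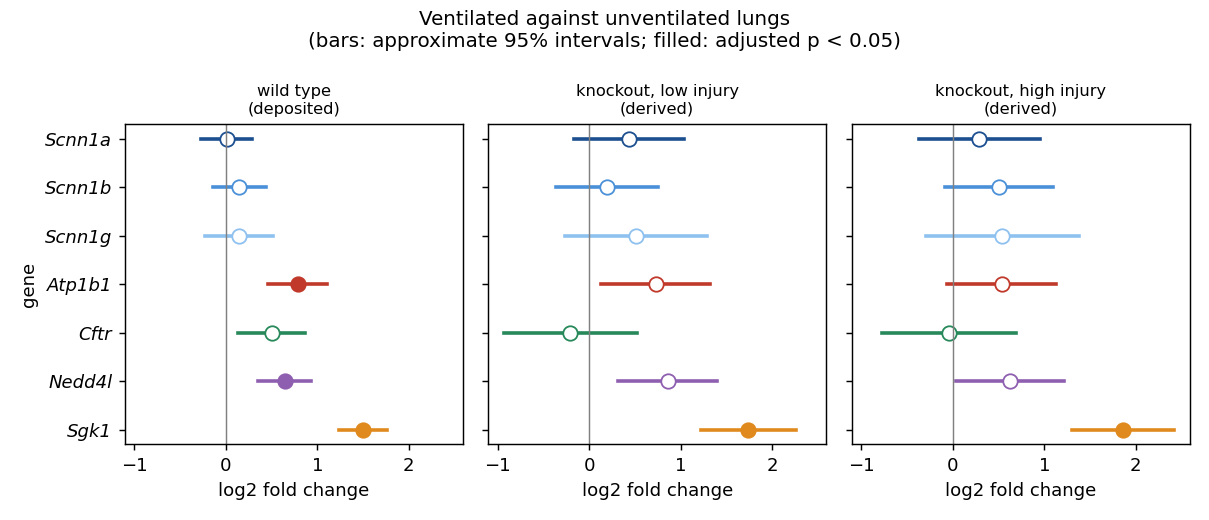
Log2 fold change (x axis) of the 7 genes (rows) between ventilated and unventilated lungs, deposited for wild type and derived for both knockout groups (panels), with bars for approximate 95% intervals. Filled points have an adjusted p under 0.05. Sgk1 stands at 1.50, 1.74 and 1.86, and Cftr at 0.50, -0.21 and -0.04.

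Whether the response to ventilation differed between genotypes was tested as the genotype difference with ventilation minus that without, and the test called none of the 7, where 1.17 percent of genes were called with KO_VILIlow and 1.57 percent with KO_VILIhigh. Cftr had the largest difference in size, -0.71 on the log2 scale with KO_VILIlow (SE 0.32, unadjusted p = 0.0275, adjusted p = 0.728, normal approximation) and -0.55 with KO_VILIhigh (SE 0.32, unadjusted p = 0.0897, adjusted p = 0.691). At the unadjusted p of 0.05, 1 gene passed with KO_VILIlow, which was Cftr, and 0 with KO_VILIhigh. With KO_VILIlow, 3.78 percent of the genes tested had a smaller p than Cftr. Its difference holds the value of KO_noVILI against WT_noVILI (0.60) with the sign reversed, so it is not independent of the call there. For Sgk1 the differences were 0.23 (SE 0.23) and 0.36 (SE 0.25), and for Scnn1a 0.43 (SE 0.27) and 0.28 (SE 0.30). No group cancels in these contrasts. Cardiac muscle markers were called higher in 7 of 7 cases in both. General epithelial markers were called higher in 3 of 9 and club cell markers in 1 of 3 with KO_VILIhigh. The part of these markers' cells in the values of the 7 genes was not tested.

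The last contrast compares the degrees of injury among ventilated knockouts. In KO_VILIhigh against KO_VILIlow the derived test called none, 0 had an unadjusted p under 0.05, and 0.165 percent of genes were called. The log2 differences ran from -0.24 for Nedd4l (SE 0.28) to 0.32 for Scnn1b (SE 0.28), with Sgk1 at 0.13 (SE 0.27).

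Beyond the 7, genes with the most similar values were sought by the root mean square difference of the 4 deposited log2 fold changes, over 9926 genes whose mean log2 CPM reached 3 in every table. Nearest to Sgk1 were Slc7a1, a carrier of cationic amino acids (0.145 log2), Tlr13, a receptor for bacterial RNA (0.160), and Rasgef1b (0.170). Slc7a1 had a log2 fold change of 1.48 in ventilated wild type lungs in the authors' deposited table. Nearest to Atp1b1 were Med13l (0.0504), Igsf5 (0.0550) and Slc38a2 (0.0587), a sodium-coupled amino acid carrier with a log2 fold change of 0.75 there. Nearest to Nedd4l were U2af1 (0.0423), Bnip3 (0.0608) and Zscan25 (0.0722), and nearest to Cftr were Rmdn3 (0.0486), Mmp2 (0.0722) and Il18bp (0.0771). These distances rest on 5 groups and describe the tables only.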

How the data were processed

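Whole mouse lungs in 5 groups were profiled. Bowtie 1.1.2, genome build mm9, edgeR and R 3.0.1 are named, per the submitters' processing notes. The count method, gene filter and edgeR settings are not given in the sources used here. The 4 deposited tables hold, per the file headers, log2 fold changes, mean log2 CPM, p-values and FDR for 21590 genes. Both ventilated knockout tables were read against WT_VILI: over 10562 genes their rebuilt reference levels lay a median of 0.0491 and 0.0450 log2 from WT_VILI, against 0.205 and 0.203 from WT_noVILI.

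Deposited values were used unrefitted, and genes were called at an adjusted p of 0.05. Standard errors are the size of the fold change over the normal quantile of its p. In the 5 derived contrasts variances were summed, and p-values were adjusted by Benjamini-Hochberg over those genes whose mean log2 CPM reached 1 and whose fold change was nonzero in each table used. The procedure was tested on simulated data with independent normal errors in each table. The deposited tables share groups, which the simulation left out, so it does not test the derived p-values of these data. Computation used scipy 1.17.1, pandas 2.3.3 and numpy 2.4.6 under Python 3.11.15, with matplotlib 3.10.9 for plots.

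The members and lists were chosen with earlier results of these data known. Named are the 7 members, Cldn4, up to 4 called genes a list with the smallest p, up to 3 markers a list (Epcam, Elf3, Nkx2-1 and Esrp1 beyond that rule), the 3 genes nearest each called member, predicted genes left out, and genes said to be chosen otherwise. Wnk3 and Fkbp5 had no match in the tables, and some genes of the sodium pump and corticosteroid and adrenergic lists are not reported here. Exon lengths are unions over protein-coding transcripts of GENCODE M21 (GRCm38), another build than the authors'. Alternatives tried were other thresholds, adjustments, minimum levels, fold minima, centring and variances.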

Additional observations from a re-analysis of the deposited data

How the results depend on the processing

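No paired analysis was possible because the tables hold no values per library and the labels carry no replicate numbers, and for the same reason no library could be left out. Of 52 alternative counts of called genes among the 7, 46 stayed within 1.5 times the reported count. For KO_noVILI against WT_noVILI the count of 1 became 0 at a deposited FDR of 0.01 and under Bonferroni adjustment. For KO_VILIlow against KO_noVILI the count of 1 became 2 at an adjusted p of 0.1 and with fold changes centred on the median, and 3 with the variance of the cancelling groups left out, a setting that gave 4 for KO_VILIhigh against KO_noVILI. Of 364 alternative values of single genes, 351 kept their direction and side of the threshold, 10 came to pass it, 3 no longer did, and 0 changed direction. Only centring alters a fold change, so under every other setting the direction could not change. A stricter threshold or adjustment likewise cannot move a gene that was not called. These counts therefore overstate how far the results were tried. Centring moved fold changes by at most 0.02 log2 in the deposited tables. WT_VILI levels rebuilt from the knockout tables differed by up to 1.07 times. Depth is unknown.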

Other observations

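Outside the 7 genes, Slc4a4 stood below wild type in ventilated knockout lungs too, at log2 fold changes of -0.64 (SE 0.18, adjusted p = 0.0516) in KO_VILIlow and -0.50 (SE 0.21, adjusted p = 0.352) in KO_VILIhigh in the authors' edgeR tables, neither passing the threshold. Its rebuilt levels were 62.2, 42.5, 79.4, 50.9 and 56.1 CPM in WT_noVILI, KO_noVILI, WT_VILI, KO_VILIlow and KO_VILIhigh. In the derived contrasts of ventilated with unventilated knockout lungs Per1 rose by 1.33 and 1.35 on the log2 scale (adjusted p = 5.23e-05 and 7.40e-05, normal approximation) in KO_VILIlow and KO_VILIhigh, and Adrb1 fell by 1.62 and 1.83 (adjusted p = 3.29e-05 and 1.68e-05). Klf9 rose by 1.07 in KO_VILIlow (adjusted p = 0.011) and stood at 0.78 in KO_VILIhigh (adjusted p = 0.19). Zbtb16, which rose by 1.19 in wild type, stood at 0.79 (adjusted p = 0.472) and 0.22 (adjusted p = 0.996), and Nr3c1 at -0.62 (adjusted p = 0.387) and -0.87 (adjusted p = 0.0718), neither passing in KO_VILIlow or KO_VILIhigh. Dot1l rose by 1.31 in KO_VILIhigh (adjusted p = 0.00887) and stood at 0.90 in KO_VILIlow (adjusted p = 0.0841).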
